A study of Mus musculus with 25 samples.

Results

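The 9 genes Neurog2, Eomes, Insm1, Neurod1, Neurod4, Tbr1, Tubb3, Dcx and Nefl mark the path from a dividing neural progenitor to a young neuron and were followed through cultured mouse astrocytes. They are 9 of the 54429 entries of the deposited table and were picked by symbol. The set was chosen by values of these same libraries, because Neurog2, Eomes and Insm1 are higher where signal through the epidermal growth factor receptor (EGFR) is lost. For that contrast their levels are therefore given as a description, with no test. RNA was sequenced from C57BL/6J cortex astrocytes isolated by immunopanning on HepaCAM, an adhesion protein of the astrocyte surface, and kept in culture. Cells given an EGFR inhibitor gave 3 libraries and those given DMSO, its solvent control, gave 3. Cells from which the EGFR ligand HBEGF was withdrawn gave 2 libraries, and cells with HBEGF gave 2. A P53 inhibitor and its own DMSO control had 3 libraries each. Cultures titled only by their day in vitro (the day cultures) had 3 libraries at each of days 2, 7 and 14. Their titles name no treatment and do not mention HBEGF. Both inhibitors were given from day 2 in vitro, while HBEGF was given or taken away on the day the cells were prepared. The labels name neither inhibitor and give no dose, age or harvest day for the treated cells.

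In the developing cortex, radial glia give rise to intermediate progenitors, which divide again to make glutamatergic neurons. Neurog2 is the basic helix-loop-helix (bHLH) factor that starts this program, Eomes (also called Tbr2) is the T-box factor that marks the intermediate progenitors, and Insm1 is a zinc finger repressor of newly committed cells. Neurod1, Neurod4 and the T-box factor Tbr1 follow as the cells become postmitotic. Tubb3 and Dcx encode a tubulin and a microtubule-binding protein of young neurons, and Nefl encodes the light neurofilament subunit of axons. Notch signalling through Hes factors restrains the proneural factors in progenitors, and Rest represses neuronal genes in cells that are not neurons. EGFR and its ligands promote growth of astrocytes and glial progenitors.

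Values are RPKM, counted reads scaled to gene length and library size, where the length is the whole annotated gene, introns included. Libraries held 4012358 to 9698571 counted reads (median 6111322). Differences on the log2(RPKM + 1) scale, where the fold of a low gene comes out too small, were estimated with limma over the 13850 genes with at least 1 RPKM in at least 2 libraries, and called at a Benjamini-Hochberg adjusted p below 0.05. Of the 9 genes, 6 entered that fit, and Neurod1, Neurod4 and Tbr1 did not. Neurog2 and Eomes entered only through libraries with the EGFR inhibitor or without HBEGF. In each of the 9 groups, 14 of 16 astrocyte markers had a mean of at least 1 RPKM. They were not the same 14 throughout: Aldh1l1 had 1.17 RPKM with HBEGF but 0.466 RPKM after withdrawal. The labels do not say whether replicates are separate animals or cultures, so each p-value reflects only how far these samples spread, possibly for technical reasons. In bulk RNA, fewer cells of a type and less RNA per cell cannot be told apart.

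The genes lie on 7 chromosomes (GRCm38, GENCODE M21), and 5 of them are free of other annotated genes. Neurog2 (ENSMUSG00000027967.8) spans bases 127633135 to 127635631 of chromosome 3 on the plus strand, and Eomes (ENSMUSG00000032446.14) spans 118478212 to 118486132 of chromosome 9. Insm1 (ENSMUSG00000068154.5) is on chromosome 2, 146221921 to 146225020, with no intron. Neurod1 (ENSMUSG00000034701.9) is on chromosome 2, 79452521 to 79456751, and Neurod4 (ENSMUSG00000048015.4) on chromosome 10, 130268152 to 130280240. Tbr1 (ENSMUSG00000035033.15) spans 61802930 to 61814114 of chromosome 2, and Tubb3 (ENSMUSG00000062380.4) spans 123411424 to 123422015 of chromosome 8. Dcx (ENSMUSG00000031285.14) covers 143855842 to 143933311 of the X chromosome and Nefl (ENSMUSG00000022055.7) covers 68083863 to 68089095 of chromosome 14. Eomes overlaps the antisense gene Gm33460, Neurod1 overlaps Cerkl and Gm26755, Tubb3 overlaps Gm20388 and Nefl overlaps Nefm. No label says whether the counting used strand, so reads of these 4 genes and their neighbours may be mixed. Cerkl and Gm20388 lie on the same strand as Neurod1 and Tubb3, so counting by strand would not separate them.

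RefSeq promoter windows (GRCm38.p6, 250 bases before to 50 bases after the start site) were at hand for 7 of the 9 genes. Of these, 4 are shown because they set the 2 progenitor factors with an increase, Neurog2 and Eomes, beside Neurod1, which stayed near 0 reads, and Tubb3, a neuron gene with an increase. They cover chr3:127632886-127633185 on the plus strand (Neurog2), chr9:118477939-118478238 on the plus strand (Eomes), chr2:79456587-79456886 on the minus strand (Neurod1) and chr8:123411303-123411602 on the plus strand (Tubb3). Capitals mark the E-box CANNTG, the element bHLH factors bind, and the TATA element TATATAA.
Neurog2: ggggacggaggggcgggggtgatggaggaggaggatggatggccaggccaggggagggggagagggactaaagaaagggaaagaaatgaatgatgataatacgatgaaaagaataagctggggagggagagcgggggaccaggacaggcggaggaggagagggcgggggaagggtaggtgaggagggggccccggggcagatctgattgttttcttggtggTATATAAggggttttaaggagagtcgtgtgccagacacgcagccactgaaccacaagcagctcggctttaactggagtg
Eomes: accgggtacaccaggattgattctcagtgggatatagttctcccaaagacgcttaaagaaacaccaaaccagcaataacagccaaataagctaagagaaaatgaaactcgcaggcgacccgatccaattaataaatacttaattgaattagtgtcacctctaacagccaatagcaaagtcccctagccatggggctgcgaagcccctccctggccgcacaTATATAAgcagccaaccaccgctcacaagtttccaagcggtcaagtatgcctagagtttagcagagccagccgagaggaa
Neurod1: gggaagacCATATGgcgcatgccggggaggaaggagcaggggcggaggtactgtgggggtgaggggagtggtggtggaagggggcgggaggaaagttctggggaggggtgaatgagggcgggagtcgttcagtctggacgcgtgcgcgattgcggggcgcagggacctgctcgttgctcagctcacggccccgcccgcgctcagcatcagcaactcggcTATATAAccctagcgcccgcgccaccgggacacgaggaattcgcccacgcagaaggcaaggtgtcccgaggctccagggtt
Tubb3: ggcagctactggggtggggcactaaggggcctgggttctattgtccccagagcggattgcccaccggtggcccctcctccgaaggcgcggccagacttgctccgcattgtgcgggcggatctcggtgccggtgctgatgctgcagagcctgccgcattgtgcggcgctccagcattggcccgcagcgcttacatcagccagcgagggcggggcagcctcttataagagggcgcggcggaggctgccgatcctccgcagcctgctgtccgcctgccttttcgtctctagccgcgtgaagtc
TATATAA, searched on both strands after the windows had been read, began 29 bases before the start site in Neurog2, 30 bases before it in Eomes and 31 bases before it in Neurod1. It was in 3.2% of 32817 promoter windows of the same length and in none of the windows of Neurod4, Tbr1, Tubb3 and Dcx. CANNTG, on both strands, was found in Neurod1 as CATATG at -242 and in Tbr1 as CAGGTG at -46, and 72.3% of all promoters hold at least 1. The Neurog2, Eomes, Neurod4, Tubb3 and Dcx windows hold none. The Hes type site CACGNG (27.5% of all promoters) occurred at -112 and -1 in Neurod1 and at 39 in Tubb3. No window held the Rbpj core TGGGAA (25.6% of all promoters) or the T-box element GGTGTGA (4.0%). A match describes letters only, and no match says only that these letters are not in this window.

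With the EGFR inhibitor, the 3 progenitor factors were present in every library, against a few reads to a low level in DMSO. Neurog2 had 5.02, 4.47 and 5.21 RPKM with the inhibitor, against 0.127, 0.12 and 0.0974 RPKM in DMSO, where each library held 2 reads. The mean was 42.7-fold higher, and the ratio of pooled reads was 43.2 (95% exact counting interval 19.5 to 119.0). Eomes had 1.86, 1.79 and 1.82 RPKM with the inhibitor, against 0.0798, 0.0189 and 0.0153 RPKM in DMSO. These are 254 reads against 6, a mean 47.9-fold higher with a pooled ratio of 51.0 (23.1 to 140.0). Insm1, the most abundant of the 3, had 20.6, 23.9 and 21.8 RPKM with the inhibitor, against 0.816, 1.69 and 1.26 RPKM in DMSO. Its mean was 17.6-fold higher, on 1206 reads against 83. For these genes every inhibitor library lay above every DMSO library, and the SD among inhibitor libraries was 0.384 RPKM for Neurog2, 0.039 RPKM for Eomes and 1.7 RPKM for Insm1. On the log2(RPKM + 1) scale the differences were 2.40 ± 0.19 for Neurog2, 1.44 ± 0.10 for Eomes and 3.37 ± 0.23 for Insm1 (± SE), while the median of all 13850 genes was -0.02. Over all genes, 16.3% were called higher and 22.2% lower. The choice of the members used this contrast, so nothing is read from their count.

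**Figure D1:**
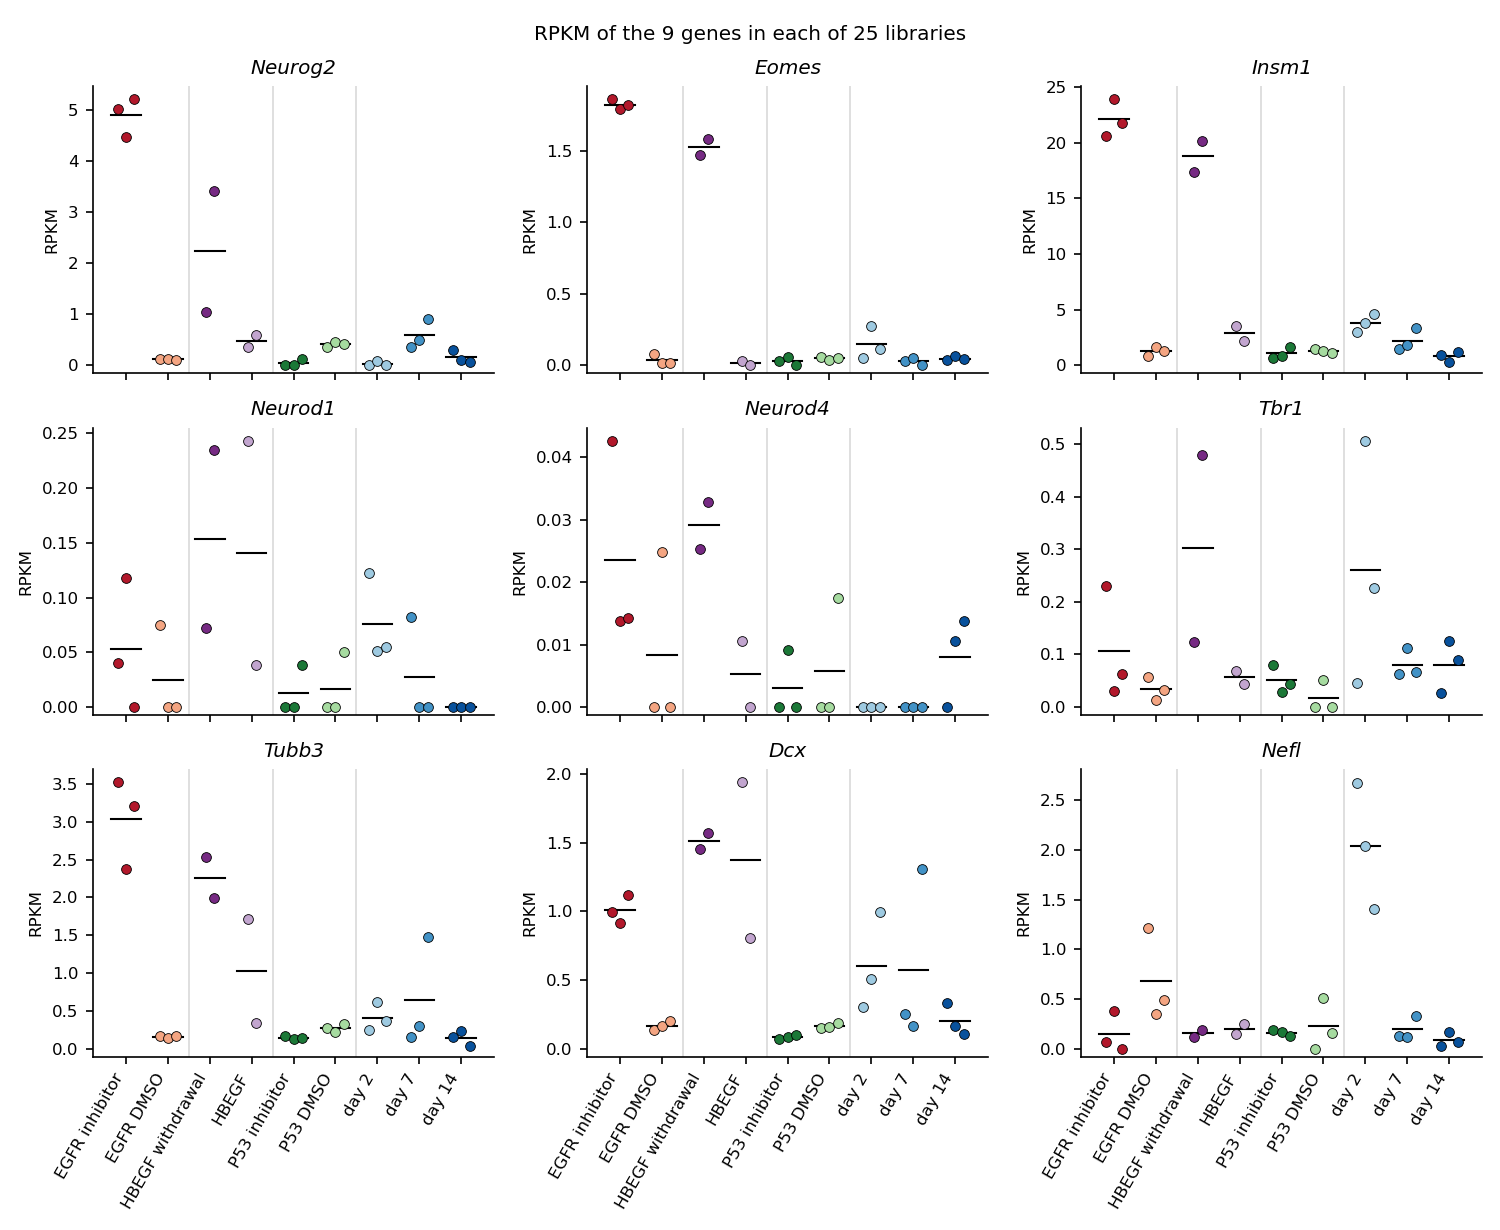
RPKM of each of the 9 genes (one panel each, own linear axis from 0) in the 25 libraries, grouped along the horizontal axis. Points are libraries and bars are group means. Neurog2, Eomes and Insm1 stand high in the EGFR inhibitor and HBEGF withdrawal groups, Nefl on day 2, and Neurod1, Neurod4 and Tbr1 reach 0.506 RPKM at most.

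The factors that come later in the same program did not appear at a like level. Neurod1 had 4 reads over the 3 inhibitor libraries and 2 over the DMSO libraries, and its highest value in any of the 25 libraries was 0.243 RPKM, with HBEGF. Neurod4 had 5 reads with the inhibitor and 2 in DMSO, with a highest value of 0.0426 RPKM. Tbr1 had 0.23, 0.0298 and 0.062 RPKM with the inhibitor, against 0.0565, 0.0134 and 0.0326 RPKM in DMSO. The groups overlapped for all 3 genes. Over the whole series Neurod1 had 34 reads, Neurod4 16 and Tbr1 168, and at this depth only a large change in Neurod1 or Neurod4 was detectable. The pooled read ratios, 2.41 for Neurod1 (0.346 to 26.7) and 3.01 for Neurod4 (0.494 to 31.7), have intervals that take in 1. That of Tbr1 was 3.17 (1.35 to 8.26), an interval that covers counting error only, and inhibitor replicate 1 alone held the high value.

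Of the neuron structure genes, the microtubule genes were higher with the inhibitor and the neurofilament gene was not. Tubb3 had 3.52, 2.37 and 3.21 RPKM with the inhibitor, against 0.164, 0.142 and 0.172 RPKM in DMSO, 19.0-fold in the means. Dcx had 0.991, 0.916 and 1.12 RPKM with the inhibitor, against 0.135, 0.161 and 0.198 RPKM in DMSO, 6.14-fold in the means. For both, the groups did not overlap. Nefl had 0.0656, 0.382 and 0 RPKM with the inhibitor, against 1.21, 0.344 and 0.488 RPKM in DMSO. The inhibitor mean of Nefl was 0.219 of the DMSO mean, 14 reads against 73, but inhibitor replicate 2 lay above DMSO replicate 2, so the groups overlap. In total 5 of the 9 genes stood higher without overlap (Neurog2, Eomes, Insm1, Tubb3 and Dcx). Of the 13850 genes 21.6% had every inhibitor library above every DMSO library and 28.7% had every one below, and nothing is read from this count, since the contrast chose the genes.

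HBEGF withdrawal gave the same picture for Eomes and Insm1, a less even one for Neurog2, and none for Dcx. Eomes had 1.47 and 1.58 RPKM after withdrawal, against 0.0325 and 0 RPKM with HBEGF. The HBEGF libraries held 2 reads of Eomes in all, against 139 after withdrawal, a pooled ratio of 83.4 (22.7 to 696.0). Insm1 had 17.4 and 20.1 RPKM after withdrawal, against 3.57 and 2.22 RPKM with HBEGF, 6.47-fold in the means. Neurog2 had 1.04 and 3.42 RPKM after withdrawal, against 0.36 and 0.59 RPKM with HBEGF. All 3 stood apart between the groups, where 19.8% of all tested genes had both withdrawal libraries above both HBEGF libraries and 37.1% had them below, but the Neurog2 libraries after withdrawal differ from each other by more than the gap to HBEGF. The Neurog2 log2 difference, 1.03 ± 0.23, was 1.59 without withdrawal replicate 1 and 0.47 without withdrawal replicate 2. Over all genes in this contrast 10.0% were called higher and 22.5% lower, with a median of -0.10. The choice of the members used it too, so their count carries no weight.

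Tubb3 had 2.53 and 1.99 RPKM after withdrawal, against 1.71 and 0.34 RPKM with HBEGF. Dcx had 1.45 and 1.57 RPKM after withdrawal, against 1.94 and 0.805 RPKM with HBEGF. HBEGF replicate 1 was the higher of the HBEGF pair in both genes, and for Dcx it lay above both withdrawal libraries. Without that library the log2 difference of Tubb3 was 1.28 instead of 0.77 and that of Dcx 0.48 instead of 0.13, and without HBEGF replicate 2 they were 0.26 and -0.23. Tbr1 had 0.123 and 0.48 RPKM after withdrawal, against 0.0689 and 0.0439 RPKM with HBEGF, or 36 reads against 9. Neurod1 (7 reads against 9), Neurod4 (4 against 1) and Nefl (9 against 14) were near the limit of detection in both groups. The EGFR inhibitor and HBEGF withdrawal experiments share no library, and the difference between their changes was not tested.

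**Figure D2:**
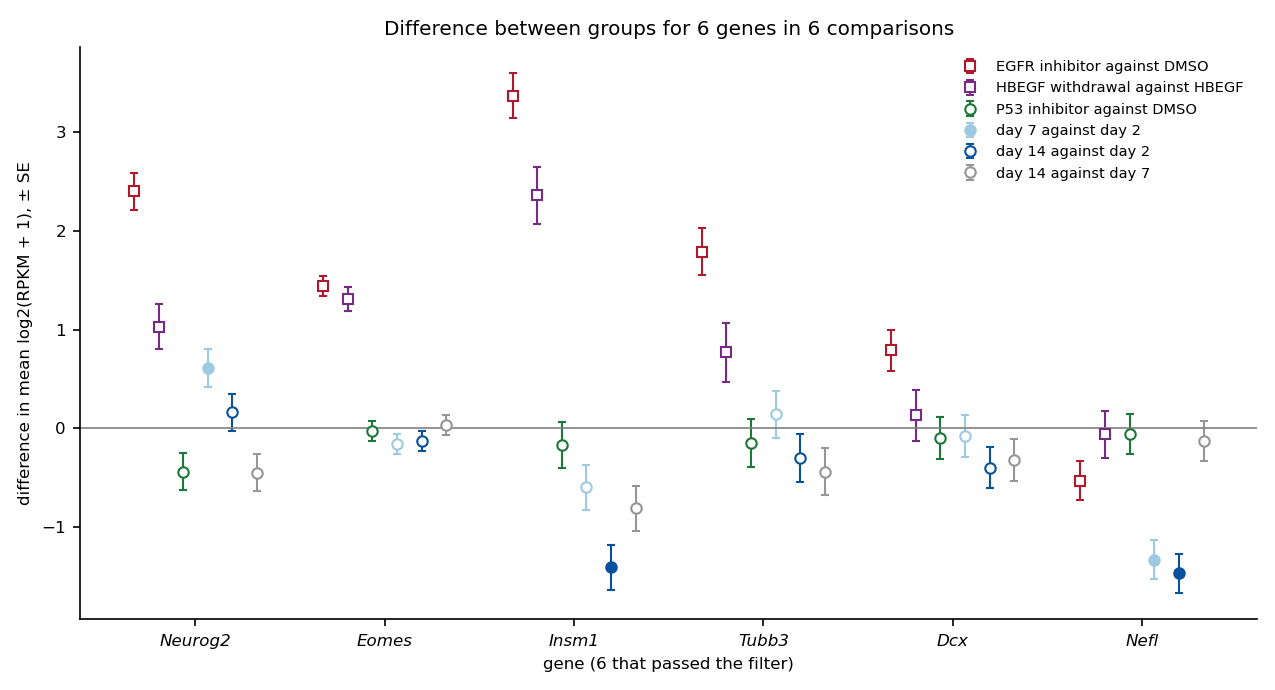
Difference in mean log2(RPKM + 1) with its SE (vertical axis) for the 6 genes that passed the filter (horizontal axis) in 6 comparisons. Squares are the 2 contrasts that chose the genes and were not tested, filled circles are called changes and open circles are not called. Called changes are those of Neurog2 and Nefl on day 7 against day 2 and of Insm1 and Nefl on day 14 against day 2.

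Lists of related genes that hold none of the 9 were read beside them. They were drawn up with earlier results of these data known. Across 13 lists, 120 of 222 genes were tested, and 79 were called with the EGFR inhibitor (59 higher, 20 lower) and 68 after HBEGF withdrawal (46 higher, 22 lower). Over all genes, 16.3% were called higher and 22.2% lower with the inhibitor, and 10.0% and 22.5% after withdrawal. These shares stand beside all list counts of these contrasts below. Of the 120, 19 passed the filter only through libraries of the EGFR inhibitor and withdrawal groups, Fezf2 and Mapt among them, which favours a higher call. The withdrawal calls use the spread of all 9 groups, and 0 of the 120 were called when the 4 libraries were fitted alone. Dll1, Hes5, Id4, Notch2, Pax6, Sox4, Tcf12, Mapt, Elavl3, Map1b, Map2, Rest, Cdkn1c, Olig1, Trim2, Ccdc177, Ggta1, 3110039I08Rik and C130023A14Rik overlap another annotated gene and are uncertain in the same way.

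Of 18 tested proneural and Notch genes, 7 rose and 4 fell with the EGFR inhibitor (median log2 0.37), and 5 rose and 5 fell after withdrawal (median -0.03). The receptor gene Notch2 rose in both, to 3.31 ± 0.183 RPKM with the inhibitor against 1.49 ± 0.096 in DMSO (SD, n = 3 each; limma adjusted p = 3.91e-07) and to 3.66 ± 0.0114 after withdrawal against 1.95 ± 0.394 with HBEGF (n = 2 each; adjusted p = 2.63e-05). Id4, an inhibitor of bHLH factors, rose 8.36-fold with the inhibitor and 4.69-fold after withdrawal. Its relative Id3 fell to 0.364 of DMSO and 0.282 of HBEGF. Hes1, the Notch effector that represses Neurog2, fell to 2.08 ± 0.202 RPKM with the inhibitor against 4.87 ± 0.618 in DMSO (limma adjusted p = 1.42e-05), and to 1.13 ± 0.459 after withdrawal against 3.61 ± 0.316 with HBEGF (adjusted p = 2.19e-05). The ligand gene Dll3 rose 3.57-fold with the inhibitor (adjusted p = 2.79e-05, limma), while after withdrawal it was at 0.708 ± 0.0948 RPKM against 0.774 ± 0.455 with HBEGF (adjusted p = 0.949). Neurog1 and Atoh1, bHLH relatives of Neurog2, were listed at 0 in all 25 libraries.

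Of 13 tested genes that accompany intermediate progenitors, 8 rose and 1 fell with the EGFR inhibitor (median log2 0.48), and 4 rose and 2 fell after withdrawal (median 0.03). Pax6, a factor of radial glia upstream of Neurog2, rose 2.57-fold with the inhibitor and 3.09-fold after withdrawal. Gadd45g, a growth arrest gene, rose to 53.2 ± 9.61 RPKM with the inhibitor against 15.2 ± 3.15 in DMSO (limma adjusted p = 5.54e-05), and to 41.0 ± 5.14 after withdrawal against 14.5 ± 0.605 with HBEGF (adjusted p = 0.0025). Sox4, a factor of new neurons, rose 2.3-fold with the inhibitor and 1.6-fold after withdrawal. Its relative Sox11 fell after withdrawal, to 0.697 of HBEGF, while it rose 1.26-fold with the inhibitor. Tcf12, which encodes a bHLH partner protein, fell in both. Among 10 tested partners of Rest and Insm1, 2 rose and 4 fell with the inhibitor and none rose and 3 fell after withdrawal. Rest itself fell to 0.715 of its control in both, with limma adjusted p = 0.00115 with the inhibitor and 0.00769 after withdrawal. The deacetylase genes Hdac1 and Hdac2 fell in both as well.

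Beyond Tubb3 and Dcx, genes of the young neuron's cytoskeleton did not move one way. Of 20 tested, 7 rose and 3 fell with the EGFR inhibitor (median log2 0.12), and 5 rose and 3 fell after withdrawal (median -0.18). Mapt, which encodes tau, rose 3.52-fold with the inhibitor and 4.03-fold after withdrawal. Elavl3, a neuronal RNA-binding protein gene, rose 2.39-fold with the inhibitor. The tubulin gene Tubb2a fell to 0.339 of DMSO with the inhibitor and to 0.384 of HBEGF after withdrawal. The summed RPKM of all 30 genes of that list was 123 to 140 with the inhibitor, against 166 to 173 in DMSO. Of 6 tested genes on the list of cortical projection neuron factors, 3 rose (Fezf2, Myt1 and Nfia) and 1 fell (Nfib) with the inhibitor. After withdrawal 2 rose (Fezf2 and Nfia) and 1 fell (Nfib). Among them Fezf2, the factor of subcortical projection neurons, was 13.4-fold higher with the inhibitor and 15.3-fold higher after withdrawal. It passed the filter only through libraries with the EGFR inhibitor or without HBEGF, so its calls, counted above, carry no weight and no p-value is given. It reached 10.2 ± 2.62 RPKM after withdrawal, against 0.669 ± 0.187 RPKM with HBEGF.

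Genes of the interneuron lineage were also higher where EGFR signal was lost. Of the 18 genes of that list 8 were tested, and 5 of them passed the filter only through libraries with the EGFR inhibitor or without HBEGF, so no count of calls is given. Dlx2, a homeobox factor of ventral forebrain progenitors, reached 13.6 ± 1.18 RPKM with the inhibitor, against 0.0864 ± 0.0499 RPKM in DMSO. The list's summed RPKM was 45.7 to 50.2 with the inhibitor, against 2.78 to 3.4 in DMSO. It was 22.1 and 21.4 after withdrawal, against 16.9 in HBEGF replicate 1 and 5.79 in HBEGF replicate 2. In the day cultures it was 15.6 in day 7 replicate 3, against 2.4 and 2.68 in the other day 7 libraries. Tubb3 and Dcx were also the highest of their groups in HBEGF replicate 1 and day 7 replicate 3. The order differed in other groups: replicate 3 of both DMSO groups had the highest Tubb3 and Dcx of its group and the lowest sum, and day 14 replicate 3 had the highest sum and the lowest Tubb3 and Dcx. Over the 25 libraries, which differ in depth and share groups, the Pearson correlation of Tubb3 with Dcx was 0.84, that of Insm1 with Tubb3 0.92 and that of Neurog2 with Dcx 0.61, given as descriptions. The part of these cells in the Tubb3 and Dcx levels was not tested.

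**Figure D3:**
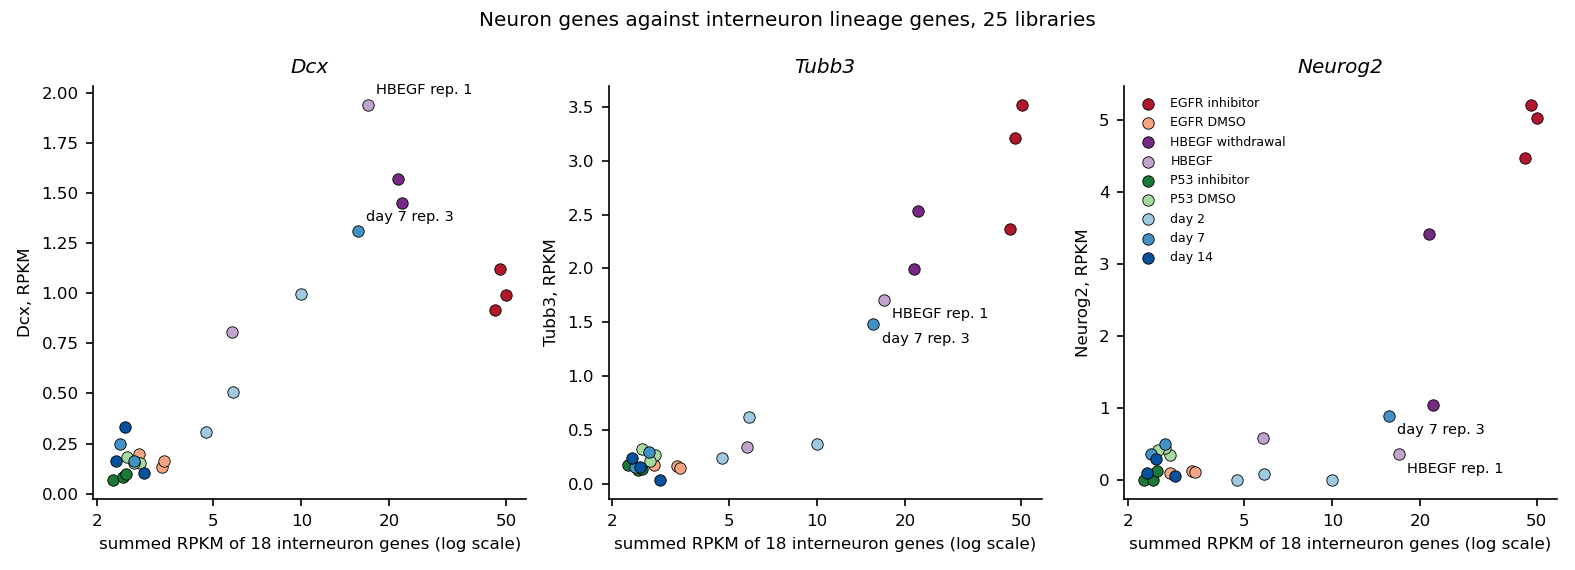
RPKM of Dcx, Tubb3 and Neurog2 (vertical axes, linear) against the summed RPKM of 18 interneuron lineage genes (horizontal axes, log scale) in 25 libraries, coloured by group. HBEGF replicate 1 and day 7 replicate 3 lie beyond the other libraries of their groups in Dcx and Tubb3, while the Dcx values of the EGFR inhibitor libraries lie below that of HBEGF replicate 1.

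Markers of other cell types also moved. Of 8 tested mature neuron markers, 2 rose and 3 fell with the EGFR inhibitor, and the list's sum was 40.8 to 41.5 RPKM with the inhibitor, against 43.4 to 48.7 RPKM in DMSO. After withdrawal 3 rose and 3 fell, and the sum was 49.6 to 50.7 RPKM against 49.8 to 62.6 RPKM with HBEGF. Of the microglia, ependymal and oligodendrocyte markers tested, 3 of 4, 3 of 4 and 3 of 5 passed the filter only through libraries with the EGFR inhibitor or without HBEGF, so their sums are given without counts of calls. Microglia markers had sums of 3.35 to 7.75 RPKM with the inhibitor against 0.828 to 1.42 in DMSO, and of 17.1 to 34.3 after withdrawal against 0.329 to 0.728 with HBEGF. Tmem119, a marker of resident microglia, was listed at 0 in all 9 groups, so it cannot show a difference between them. Ependymal markers had sums of 19.2 to 25.5 RPKM with the inhibitor against 3.4 to 3.89 in DMSO, and of 37.8 to 41.8 after withdrawal against 4.95 to 6.51 with HBEGF. Astrocyte markers summed to 636 to 656 RPKM with the inhibitor, against 212 to 255 in DMSO, and 9 of 14 tested rose and 1 fell (Aldh1l1). After withdrawal their sum was 476 to 522 RPKM against 218 to 245 with HBEGF, and 8 rose and 2 fell (Aldh1l1 and Slc1a3). Oligodendrocyte markers had sums of 6.88 to 7.39 RPKM with the inhibitor against 3.68 to 5.55 in DMSO, and of 28.5 to 30.8 after withdrawal against 9.19 to 18.6 with HBEGF. For oligodendrocyte precursor markers, 3 of 9 rose and 3 fell with the inhibitor, and 2 rose and 3 fell after withdrawal. Their sum was 122 to 146 RPKM with the inhibitor against 326 to 421 in DMSO, and 99.6 to 107 after withdrawal against 395 to 424 with HBEGF. Olig1 and Olig2, bHLH factors of the oligodendrocyte lineage, make up most of that sum, and Olig1 fell to 0.245 of DMSO and 0.196 of HBEGF. Endothelial and pericyte markers had sums of 1.23 to 1.59 RPKM with the inhibitor against 0.246 to 0.292 in DMSO, and of 1.55 to 1.81 after withdrawal against 0.275 to 0.338 with HBEGF. Mitochondrial ribosomal RNA took 22.2 to 25.4% of reads with the inhibitor against 18.4 to 18.8% in DMSO, and 27.9 to 29.8% after withdrawal against 17.2 to 18.2% with HBEGF. The part of these differences in the 9 genes was not tested.

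The P53 inhibitor comparison played no part in choosing the genes and was tested. None of the 6 tested genes passed limma's threshold, 1 had an unadjusted p below 0.05, and over all genes 0.0289% were called higher and 0.152% lower. Neurog2 had 0, 0 and 0.132 RPKM with the P53 inhibitor, against 0.353, 0.454 and 0.425 RPKM in DMSO, or 2 reads against 17 (pooled ratio 0.0795, 0.0089 to 0.335). Its log2 difference of -0.44 ± 0.19 had an adjusted p of 0.559 in limma, and -3.44 with an adjusted p of 0.0408 when recovered reads were fitted by voom. Over its alternatives the adjusted p of Neurog2 ranged between 0.0408 and 0.881. Tubb3 had 0.169, 0.124 and 0.139 RPKM with the inhibitor, against 0.27, 0.214 and 0.32 RPKM in DMSO (limma adjusted p = 0.955). Dcx had 0.0664, 0.082 and 0.0975 RPKM with the inhibitor, against 0.151, 0.155 and 0.183 RPKM in DMSO (limma adjusted p = 0.973). The pooled ratios were 0.555 for Tubb3 (0.349 to 0.877) and 0.494 for Dcx (0.398 to 0.613), with intervals that cover counting error only. At these low values the log2(RPKM + 1) differences come out small, -0.15 for Tubb3 and -0.10 for Dcx. For Neurog2, Tubb3 and Dcx every inhibitor library lay below every DMSO library, where 11.3% of all tested genes did so. Eomes, Insm1 and Nefl overlapped between the groups, with log2 differences of -0.03, -0.17 and -0.06. Of the 120 tested list genes 1 fell, Cdkn1c, a cyclin-dependent kinase inhibitor, with 2.23 ± 0.234 RPKM with the inhibitor against 6.35 ± 1.09 in DMSO (SD, n = 3 each; limma adjusted p = 0.0194). No list gene was called with a pseudocount of 0.1, with no filter, or without P53 DMSO replicate 3 or any 1 of the P53 inhibitor libraries. Interneuron genes summed to 2.27 to 2.52 RPKM with the inhibitor against 2.53 to 2.8 in DMSO, lower in every inhibitor library.

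In the day cultures Insm1 and Nefl declined with days in vitro. Insm1 had 2.96, 3.79 and 4.62 RPKM on day 2, 1.49, 1.81 and 3.38 RPKM on day 7, and 0.917, 0.327 and 1.23 RPKM on day 14. Day 14 lay below both earlier days with no overlap, and day 7 overlapped day 2. Of all tested genes, 24.7% had every day 14 library below every day 2 library, and 9.96% below every day 7 library. By limma Insm1 fell on day 14 against day 2 (log2 difference -1.41 ± 0.23, adjusted p = 0.000331; 50 reads against 205), and its difference on day 7 against day 2 was -0.60 ± 0.23 (adjusted p = 0.0999). That difference was -0.84 with an adjusted p of 0.0343 without day 7 replicate 3, the library with high interneuron genes, and over its alternatives the adjusted p ran between 0.0343 and 0.315. Nefl had 2.68, 2.04 and 1.41 RPKM on day 2, 0.132, 0.119 and 0.333 RPKM on day 7, and 0.0286, 0.17 and 0.0631 RPKM on day 14. Every day 2 library lay above every later one, where 17.9% of all tested genes had every day 7 library below every day 2 library. Nefl fell on day 7 against day 2 (-1.33 ± 0.20, limma adjusted p = 0.000278) and on day 14 against day 2 (-1.47 ± 0.20, adjusted p = 5.07e-05). Of the 4 libraries that let Nefl pass the filter 3 are those of day 2, which favours such a difference, but without the filter the adjusted p-values were 0.000334 and 6.19e-05.

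Neurog2 took another course. It had 0, 0.0872 and 0 RPKM on day 2, 0.369, 0.5 and 0.899 RPKM on day 7, and 0.3, 0.102 and 0.0662 RPKM on day 14. Day 7 lay above both other days without overlap. Of all tested genes, 9.6% had every day 7 library above every day 2 library, and 9.96% had every day 14 library below every day 7 library. By limma it rose on day 7 against day 2 (log2 difference 0.61 ± 0.19, adjusted p = 0.0386), with 23 reads against 1 and a pooled ratio of 24.5 (3.98 to 1010.0). The call is close to the threshold: it held in 7 of 18 alternatives, with adjusted p between 0.00239 and 0.207, and was lost on leaving out any day 2 library or day 7 replicate 2 or 3 (0.0645 to 0.167). On day 14 against day 7 the difference was -0.45 ± 0.19 (adjusted p = 0.404). Eomes had 0.0521, 0.275 and 0.117 RPKM on day 2, 0.0291, 0.0525 and 0 RPKM on day 7, and 0.0378, 0.064 and 0.0417 RPKM on day 14, and was not called between days, although on log2(CPM + 1) its difference on day 7 against day 2 was -0.77 (limma adjusted p = 0.0383, the lowest of its alternatives, which reached 0.74). Tubb3 and Dcx were not called between any days either. For Tubb3 the values were 0.243, 0.616 and 0.371 RPKM on day 2, 0.152, 0.295 and 1.48 RPKM on day 7, and 0.155, 0.239 and 0.0312 RPKM on day 14. Dcx had 0.306, 0.506 and 0.996 RPKM on day 2, 0.25, 0.161 and 1.31 RPKM on day 7, and 0.33, 0.165 and 0.104 RPKM on day 14. Day 7 replicate 3 held the highest value of the 9 for both genes. Tbr1 had 42, 15 and 19 reads and Neurod1 7, 3 and 0 reads over the libraries of days 2, 7 and 14, while Neurod4 had 2 reads, on day 14.

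Between days, then, 2 of the 6 tested genes were called on day 7 against day 2 (Neurog2 higher, Nefl lower), beside 4.12% of all genes higher and 9.59% lower. On day 14 against day 2, 2 were lower (Insm1 and Nefl) beside 17.6% of all genes, and none higher beside 5.55%. Nefl would not have passed the filter without the day 2 libraries, where it is high, though it was also called in both contrasts with no filter. On day 14 against day 7 none was called by limma, 2 had an unadjusted p below 0.05 (Neurog2 and Insm1), and 0.0505% of all genes were higher and 0.0866% lower. Of 18 tested proneural and Notch genes, 5 rose and 1 fell on day 7 against day 2 (median log2 0.19, against -0.05 for all genes). The list genes named here were chosen after their values were seen. Dll1, a Notch ligand gene, had 6.59 ± 0.789 RPKM on day 7 against 2.62 ± 0.577 on day 2 (SD, n = 3 each; limma adjusted p = 0.00244). Hes5, a Notch effector, had 10.8 ± 5.11 RPKM against 1.43 ± 0.723 (limma adjusted p = 0.00213). Of 20 tested young neuron cytoskeleton genes, 1 rose and 6 fell on day 7 against day 2, and 2 rose and 10 fell on day 14 against day 2 (median log2 -0.35, against -0.11 for all genes). Among them Map1b, a microtubule-binding protein of growing axons, had 0.629 ± 0.197 RPKM on day 14 against 6.72 ± 0.596 on day 2 (limma adjusted p = 8.02e-07). Map2, its counterpart in dendrites, rose to 4.11 ± 0.414 against 2.42 ± 0.417 (limma adjusted p = 0.000183). The astrocyte marker sum was 122 to 177 RPKM on day 2, 236 to 347 on day 7 and 239 to 438 on day 14. The mature neuron marker sum was 43.8 to 47.4 RPKM on day 2, 51.4 to 63.6 on day 7 and 47.6 to 52.3 on day 14. The part of a changing makeup of cells in these differences was not tested.

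If only exon reads were counted, levels of different genes can be set side by side per exon length (exon RPKM), since RPKM over the whole gene dilutes genes with long introns. Dcx, with 12647 exon bases in a span of 77470, gains much by this, and Insm1, with no intron, does not change. That only exon reads were counted was not tested, and the order depends on it. Over the whole gene, the EGFR inhibitor means were 4.9 RPKM for Neurog2, 3.03 for Tubb3, 1.82 for Eomes and 1.01 for Dcx. With the EGFR inhibitor the order in exon RPKM was Insm1 (22.1 ± 1.7), Tubb3 (17.2 ± 3.35), Dcx (6.18 ± 0.636), Neurog2 (5.49 ± 0.43) and Eomes (3.47 ± 0.0743; SD, n = 3 each). Insm1 and Tubb3, and also Dcx and Neurog2, were closer to each other than their SDs together, while Tubb3 and Dcx, and Neurog2 and Eomes, were farther apart, with Nefl (0.231), Tbr1 (0.219), Neurod4 (0.0852) and Neurod1 (0.082) far below and not separable. After withdrawal the order was Insm1 (18.7 ± 1.91), Tubb3 (12.8 ± 2.16), Dcx (9.26 ± 0.546), Eomes (2.91 ± 0.153) and Neurog2 (2.5 ± 1.89; n = 2 each), with Eomes and Neurog2 within their SDs. On day 2 it was Insm1 (3.79 ± 0.831), Dcx (3.69 ± 2.18), Nefl (3.16 ± 0.981) and Tubb3 (2.33 ± 1.08), none farther from the next than their spread. Among groups, the mean RPKM of Insm1 was highest with the EGFR inhibitor (22.1) and after withdrawal (18.7), within their SDs of each other, then on day 2 (3.79), with HBEGF (2.89), on day 7 (2.23), in P53 DMSO (1.29), in EGFR DMSO (1.26), with the P53 inhibitor (1.08) and on day 14 (0.823). Below withdrawal, each neighbour in that order lay within the spread of the next.

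**Figure D4:**
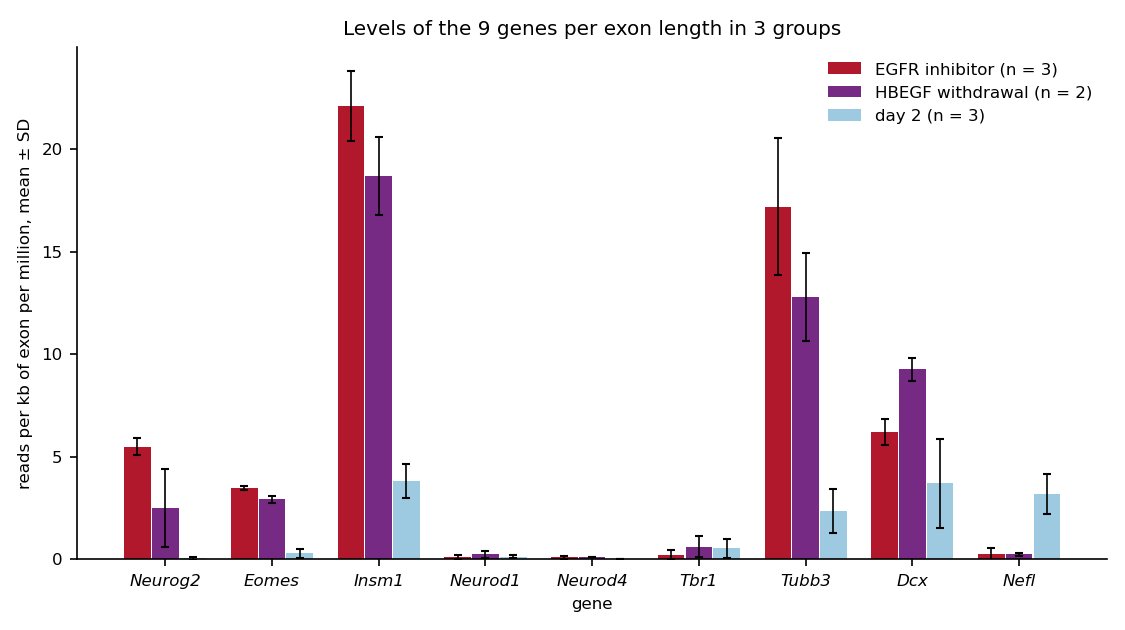
Exon RPKM, the RPKM recomputed over exon length (vertical axis, linear from 0) of the 9 genes in the EGFR inhibitor, HBEGF withdrawal and day 2 groups. Bars are means and lines SDs over 3, 2 and 3 libraries. Insm1 and Tubb3 are the highest in the first 2 groups, and Nefl is above 1 only on day 2.

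The tested genes whose log2(RPKM + 1) followed the 3 progenitor factors most closely over the 25 libraries were taken by Pearson correlation, as a description. For Neurog2 they were 3110039I08Rik (0.956), Angptl4 (0.955), Scrt2 (0.954), C130023A14Rik (0.954) and Gm13111 (0.949). For Eomes they were Fam210b (0.981), Angptl4 (0.975), Ggta1 (0.973), Naaa (0.972) and Celsr1 (0.971). For Insm1 they included Trim2 (0.963), Tmem131l (0.961), Ccdc177 (0.958) and Tsc22d1 (0.954). Scrt2, a zinc finger factor of new neurons, had 1.1 ± 0.0706 RPKM with the EGFR inhibitor against 0.012 ± 0.0128 in DMSO, and 0.805 ± 0.26 after withdrawal against 0.164 ± 0.15 with HBEGF. Angptl4, a secreted inhibitor of lipoprotein lipase on the lists of both Neurog2 and Eomes, had 4.44 ± 0.815 RPKM with the inhibitor against 0.029 ± 0.0253 in DMSO, and 2.43 ± 1.23 after withdrawal against 0.117 ± 0.136 with HBEGF. Among the 9 genes themselves, Neurog2 and Eomes correlated at 0.90, Eomes and Insm1 at 0.93, and Nefl with the other 8 at -0.34 to 0.31. These points share the groups and the few libraries with high values.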

How the data were processed

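RNA from 25 libraries of cultured mouse astrocytes was analysed. Per the submitters' processing notes the authors used STAR, HTSeq, edgeR and limma with GRCm38. No version and no strand setting is stated there. The authors deposited RPKM values, from which reads were recovered with the whole GENCODE M21 gene span as length: 97.8 to 98.2% of values up to 300 reads came within 0.01 of a whole number.

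Symbols matched 1 GENCODE gene for 53713 entries (98.7%). Genes with at least 1 RPKM in 2 libraries (13850) entered one limma fit of log2(RPKM + 1), with a mean for each of 9 groups and 16 residual degrees of freedom, moderated by eBayes (trend, robust). The Benjamini-Hochberg adjustment was made separately in every comparison, with a threshold of 0.05. All p-values are limma's. The 9 genes were not tested in the 2 contrasts that chose them. The members and lists were chosen with earlier results of these data known. Named list genes are up to 3 per direction with the smallest p in those 2 contrasts, plus genes the text marks or gives for other comparisons, chosen after their values were seen. Some genes that this rule names are not reported here. Counting intervals are exact conditional 95% intervals, and these intervals cover counting error only. The code was tested on simulated data. The fits ran in limma 3.58.1 under R 4.3.3. Tables were made in Python 3.11.15 with scipy 1.17.1, numpy 2.4.6 and pandas 2.3.3, and plots with matplotlib 3.10.9.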

Additional observations from a re-analysis of the deposited data

How the results depend on the processing

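Alternatives were a pseudocount of 0.1, no filter (35203 genes), a filter of 5 RPKM (3995 genes), median-of-ratios scaling, quantile normalization, scaling without mitochondrial genes, log2(CPM + 1), voom on recovered reads, each experiment alone, a replicate block, array weights and leaving out each library. Voom with no RPKM filter was added after the data were seen. Of 416 values for the 6 genes in the tested comparisons, 389 kept direction and side of the threshold. Causes of the shifts were not tested.

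Of the 9 genes, 2 were called on day 7 against day 2. The count was 1 with no filter, median-of-ratios scaling, quantile normalization, scaling without mitochondrial genes and each experiment alone, 0 at 5 RPKM (where Nefl was not tested), 1 to 2 on leaving out a library, and 3 with log2(CPM + 1), which adds Eomes. On day 14 against day 2 it was 1 at 5 RPKM instead of 2, for the same reason, and 3 by voom with no filter, which adds Neurod1 (-2.49, adjusted p = 0.042, limma). With the P53 inhibitor it was 1 instead of 0 by voom, with or without the filter. Differences that changed sign were all small and not called. For Nefl with the P53 inhibitor they were 0.04 (pseudocount 0.1), 0.37 and 0.32 (voom with and without the filter), and -0.19 to 0.11 on leaving out a library. For Tubb3 on day 7 against day 2 they were -0.08 by both voom fits, -0.05 with array weights and -0.2 to 0.35 on leaving out a library. For Dcx on the same days they ran from -0.39 to 0.11 on leaving out a library. Eomes on day 14 against day 7 was -0.01 with quantile normalization.

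The count of list genes called at 5 RPKM, and by voom with no filter (which also tests genes that the filter removes), was 41 and 126 with the EGFR inhibitor (79 as reported, of 120 tested), 36 and 107 after HBEGF withdrawal (68), 23 and 59 on day 7 against day 2 (38), and 28 and 84 on day 14 against day 2 (52). Fitted alone, the experiments gave 0 for withdrawal, 9 and 20 for those days, and 0 for day 14 against day 7 (2). With the P53 inhibitor (1) the count was 0 with a pseudocount of 0.1 or no filter, 2 with the 3 other scalings, 3 with log2(CPM + 1) or fitted alone, 8 and 9 by voom with and without the filter, 16 with array weights, and 0 to 1 without a library. For day 14 against day 7 it was 1 with the 3 other scalings, 4 with log2(CPM + 1), 0 with array weights and 0 to 2 without a library.

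Same-numbered libraries showed little shared deviation from their group means (correlations -0.095 to 0.118). With so few libraries in a group this cannot tell whether equal numbers share an animal or preparation, and the labels do not say. With the replicate block 0, 2, 2 and 0 of the 9 genes were called with the P53 inhibitor and on days 7 against 2, 14 against 2 and 14 against 7, as without it, although Neurog2 on day 7 then had an adjusted p that rounds to 0.05. Depth limits Neurod1 and Neurod4, with 34 and 16 reads in 25 libraries, and Neurog2 on day 2, with 1 read.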
